A study of Homo sapiens with 24 samples.

Results

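The comparison described here sets HCC38 cells after 72 h of cisplatin against HCC38 cells after 24 h of the same drug. It uses 4 of the 24 arrays of the series, chosen by sample title: 2 replicates at 72 h and 2 at 24 h. HCC38 is an established line from a triple-negative breast carcinoma, that is, one without the oestrogen and progesterone receptors and without HER2 amplification. Besides HCC38 the series holds 3 more triple-negative lines, BT549 and the MDA-MB lines 157 and 231, each line with 2 replicates, called independent in the study's design text, at 0, 24 and 72 h of 2 µM cisplatin. The HCC38 groups named below are therefore HCC38 at 0 h (no drug exposure), at 24 h and at 72 h of 2 µM cisplatin, with 2 arrays each, and the cells at 24 h and 72 h share the line, the drug and the dose. No cells kept for 72 h without drug were analysed here, so time in culture and time on the drug cannot be told apart. Each value is the log2 normalized intensity of the brightest detected probe of a gene, on single-colour Illumina bead arrays, and 14807 named genes that were detected on at least 2 of the 24 arrays were tested.

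Cisplatin forms platinum adducts and crosslinks on DNA, which block replication and transcription and activate checkpoint, repair and death pathways. Among the genes that can follow are genes of the cell cycle and the targets of stress-activated transcription factors such as NF-kB and AP-1. NF-kB is held in the cytoplasm by inhibitor proteins until a stimulus frees it, and it then drives cytokines such as TNF and chemokines such as CXCL8, along with its own inhibitors. The RAS-MAPK cascade induces phosphatases and sprouty proteins that dampen it, so the mRNAs of these feedback genes are used as a readout of its output. Small nuclear and small nucleolar RNAs are short non-coding RNAs that guide splicing, modify ribosomal RNA or, in the case of 7SK, hold the transcription elongation kinase P-TEFb inactive.

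On the 4 arrays, 42.8% to 43.9% of 47322 probes had a detection p under 0.05. The replicates correlated at r = 0.989 at 24 h and 0.990 at 72 h across genes. Replicate 1 of both times was on 1 slide and replicate 2 of both times on the other, so each slide holds 1 complete pair. The 0 h arrays, given below beside many values, were less alike: replicates 1 and 2 detected 46.4% and 43.5% of probes and correlated at r = 0.986. Of 10 tested epithelial markers, such as EPCAM, CDH1 and the keratins, 9 were detected on all 4 arrays, as were all 4 genes that mark HCC38 among these lines. Of 4 tested genes of the hormone receptor and HER2 set, ERBB2, GATA3 and FOXA1 were detected on all 4 arrays and PGR on none. The 2 endothelial markers tested were detected on none. Of 9 fibroblast markers, 2 (COL1A1 and COL1A2) were detected on all 4 and 4 on none. Of 5 tested leukocyte markers, CD14 and CD68 were detected on all 4 and 1 on none. These counts leave out listed markers with a probe that was not detected on at least 2 of the 24 arrays. They were PTPRC, CD3D and CD3E of the leukocyte set, and CDH5, VWF, KDR and CLDN5 of the endothelial set. ESR1 and the keratin KRT14 were left out for the same reason. Among these 4 arrays ITGAM was detected only on the 72 h pair and LYZ only on the 24 h pair. The 4 marker genes of MDA-MB-157 were detected on 0 of the 4 arrays. Of the 4 marker genes of BT549 (COL1A2, THY1, TAGLN and BAIAP2L2), COL1A2 and TAGLN were detected on all 4 arrays. THY1 was detected on neither 24 h array and BAIAP2L2 on 1 of 2, and both 72 h arrays detected all 4 genes. Their summed linear intensity was 209 and 327 on the 24 h arrays, 508 and 607 on the 72 h arrays, and 753 and 183 on the 0 h arrays. The 72 h arrays were higher for these 4 genes, and the 0 h arrays lay on either side of all 4. The differences of COL1A2, TAGLN and BAIAP2L2 between 24 h and 72 h in HCC38 equalled 0.937% to 1.69% of their levels in BT549. THY1 read as background at 24 h, so no share is given for it. Of the 4 marker genes of MDA-MB-231, 3 were detected on all 4 arrays, and their summed intensity was 680 and 554 at 24 h, 723 and 812 at 72 h, and 497 and 1183 at 0 h. Among genes brighter by over 4 log2 units in one other line than in the remaining pair of other lines at 0 h, 28 of 33 for MDA-MB-231 (84.8%), 23 of 34 for BT549 (67.6%) and 21 of 36 for MDA-MB-157 (58.3%) were above 0 in HCC38, against 49.4% of all genes. Whether RNA of these cells had a part in any result below was not tested, and BT549 levels are given beside several results. In bulk RNA a change in the share of cells that make an RNA and a change in the RNA per cell cannot be told apart.

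Between 24 h and 72 h 7 genes rose and none fell at an adjusted p under 0.05 (limma, Benjamini-Hochberg over 14807 genes), which is 0.0473% of the genes tested. The 7 were SH3GL2, RN7SK, RNU4-2, TNF, MDGA2, UPK2 and TMEFF2, with rises of 0.98 to 2.04 on the log2 scale for the 4 detected at 24 h and bounds for the other three. By the RefSeq gene table they lie on chromosomes 9 (SH3GL2), 6 (RN7SK and TNF), 12 (RNU4-2), 14 (MDGA2), 11 (UPK2) and 2 (TMEFF2). At an unadjusted p under 0.05 the count was 866 genes (5.85%), of which 450 were higher (3.04%) and 416 lower (2.81%) at 72 h. The median change over all genes was -0.0035, and 49.4% of the genes were above 0. Across genes, the 72 h minus 24 h difference on slide 1 correlated with that on slide 2 at r = 0.176, and 54.4% of genes had the same sign on both slides. With slide as a block 7 genes passed, and these were the same 7. The calls rest on single arrays and on the scaling: without replicate 2 at 72 h the count was 0, without replicate 2 at 24 h it was 2 and without replicate 1 at 24 h it was 5, of which 1 each belonged to the 7. With arrays scaled to their median in place of quantile normalization it was 0. In the 4 HCC38 arrays taken alone 0 genes passed (1059 at an unadjusted p under 0.05), so the 7 calls use a spread that is shared with the other lines.

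**Figure D1:**
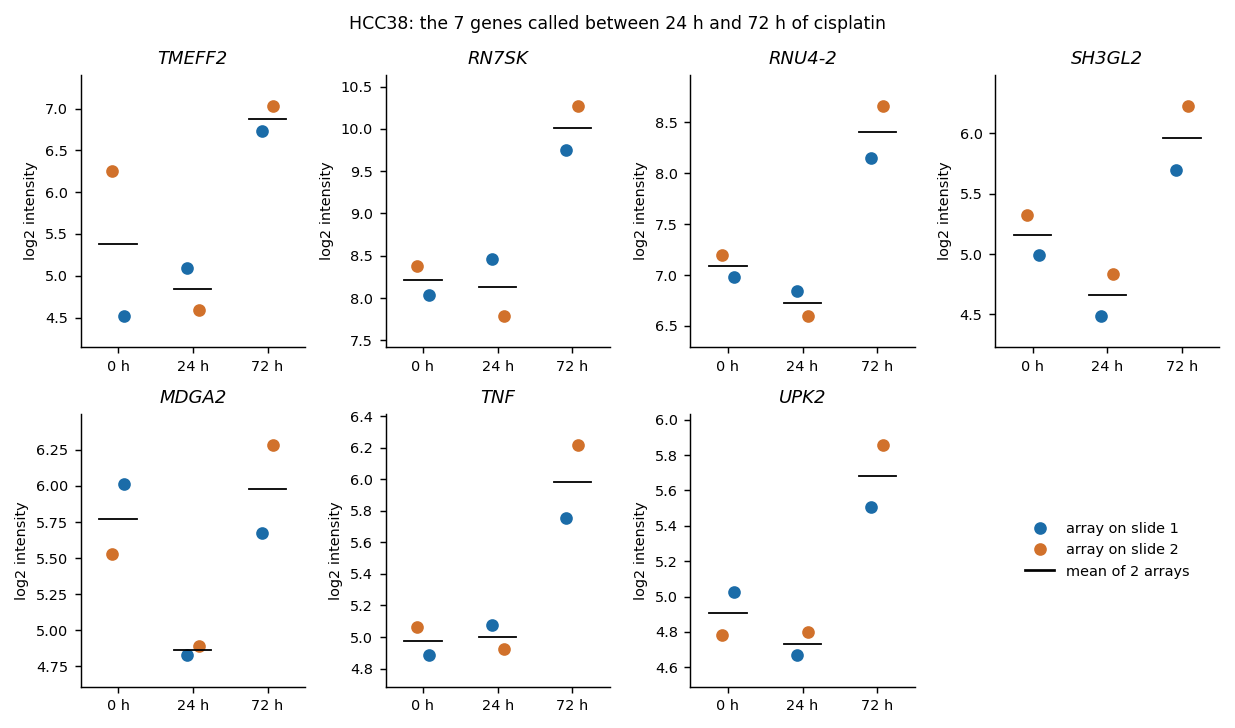
Normalized log2 intensity of the 7 genes that passed the test in HCC38 at 0, 24 and 72 h of cisplatin, 1 panel per gene, with each array as a point coloured by slide and the mean of the 2 arrays as a bar. Both 72 h arrays lie above both 24 h arrays in every panel, which the choice of genes by this contrast favours. MDGA2 at 72 h overlaps with 0 h.

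RN7SK encodes 7SK, the RNA that sequesters P-TEFb. Its log2 intensity was 8.47 and 7.79 at 24 h and 9.75 and 10.27 at 72 h, with 8.38 and 8.04 at 0 h. Both 72 h arrays stood above the other 4. The rise was 1.89 ± 0.29 (SE, n = 2 arrays per group; adjusted p = 0.025 with limma), a 3.69-fold difference, and a further probe of the gene gave 2.13. RNU4-2 encodes U4, the spliceosomal RNA that pairs with U6. It read 6.84 and 6.60 at 24 h against 8.15 and 8.66 at 72 h, with 7.20 and 6.98 at 0 h. The rise was 1.69 ± 0.27 (adjusted p = 0.025), or 3.22-fold, and again the 72 h arrays stood apart from all others. Both RNAs were detected on 6 of 6 BT549 arrays, and the HCC38 differences equalled 80.1% and 94.9% of the BT549 levels of RN7SK and RNU4-2.

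TNF, the inflammatory cytokine, was a dim signal: 5.08 and 4.92 at 24 h, 5.75 and 6.22 at 72 h, and 5.06 and 4.88 at 0 h. Both arrays at 24 h and both at 72 h detected it, as did 1 of 2 at 0 h. The rise of 0.98 ± 0.17 (adjusted p = 0.029), or 1.98-fold, was 0.67 on slide 1 and 1.29 on slide 2.

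TMEFF2, a transmembrane protein with EGF-like and follistatin-like domains, had the largest rise of the 7. It read 5.09 and 4.59 at 24 h, where 1 of 2 arrays detected it, and 6.73 and 7.03 at 72 h. The rise was 2.04 ± 0.35 (adjusted p = 0.029), or 4.12-fold. At 0 h the replicates differed widely, at 6.25 and 4.52. TMEFF2 was detected on 6 of 6 BT549 arrays, and the HCC38 difference equalled 9.69% of the BT549 level. SH3GL2, MDGA2, TNF and UPK2 were detected on 0 of 6 BT549 arrays.

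SH3GL2, MDGA2 and UPK2 were not detected on either 24 h array and were detected on both 72 h arrays, so only a bound can be given for their fold. For SH3GL2 (endophilin A1, a protein of synaptic vesicle endocytosis) the arrays read 4.49 and 4.83 at 24 h and 5.70 and 6.23 at 72 h, at least 2.05-fold higher (adjusted p = 0.025). MDGA2, a membrane-anchored immunoglobulin-family protein that binds neuroligins, read 4.83 and 4.89 against 5.67 and 6.28, at least 2.07-fold higher (adjusted p = 0.029). UPK2, a uroplakin of the urothelial surface, read 4.67 and 4.80 against 5.51 and 5.86, at least 1.68-fold higher (adjusted p = 0.029). Outside HCC38 at 72 h UPK2 was detected on 1 array, so it passed the detection filter only through the group where it is bright. All 3 stayed close to background even at 72 h. At 0 h SH3GL2 read 5.32 and 4.99, MDGA2 5.53 and 6.02, and UPK2 4.78 and 5.03. For 6 of the 7 genes that rose both 72 h arrays were above both 0 h arrays. MDGA2 was the exception, with overlapping arrays at 0 h and 72 h and dimmer arrays at 24 h. Over all genes 19.2% had both 72 h arrays above both 0 h arrays. The 7 were chosen for bright 72 h arrays, which favours this order, so nothing is read from it. All 7 differences were larger on slide 2 than on slide 1. The share over all genes was 48.1%, but it covers rises and falls together. Across genes the differences also spread more widely on slide 2 (SD 0.389) than on slide 1 (SD 0.321). The 7 were chosen as large rises, so nothing is read from this count.

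**Figure D2:**
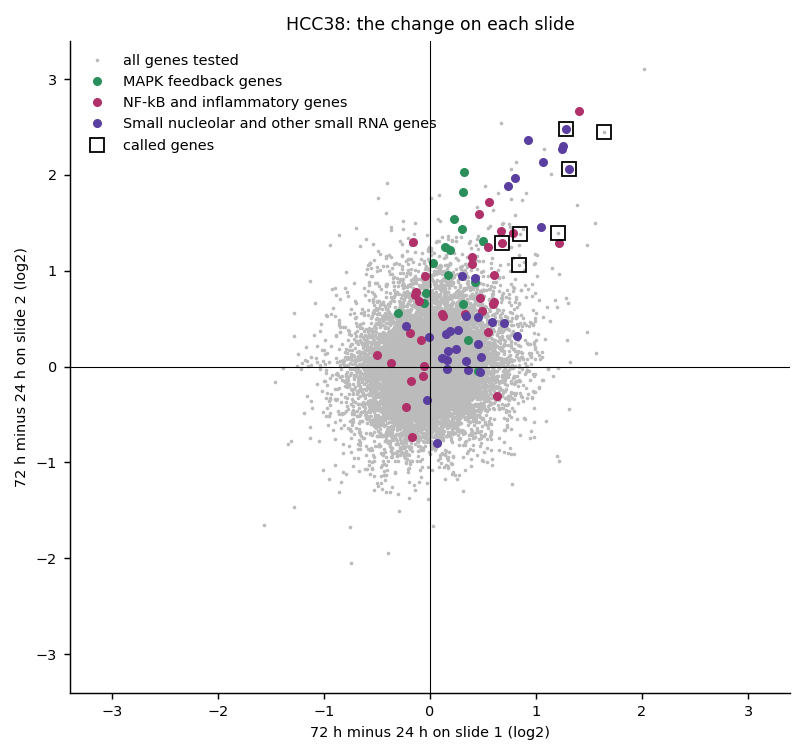
Change from 24 h to 72 h (log2) on slide 1 (horizontal) and on slide 2 (vertical) for all genes tested in HCC38, with 3 gene lists coloured and the 7 genes that passed the test boxed. The coloured lists lie mostly above 0 on both axes, and the MAPK feedback genes lie higher on slide 2 (median 1.02) than on slide 1 (median 0.26).

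Other genes came near the threshold without passing it. Higher at 72 h were SNORD3C (1.78 ± 0.33, adjusted p = 0.072) and SNORD3D (1.76 ± 0.35, adjusted p = 0.13), both copies of U3, the small nucleolar RNA needed to process the 18S ribosomal RNA. RNU1-3, a copy of U1 that recognises 5′ splice sites, differed by 1.31 ± 0.27 (adjusted p = 0.14). RLN1, a relaxin hormone gene, read 5.61 and 5.57 at 24 h and 6.28 and 6.28 at 72 h, a difference of 0.69 ± 0.14 (adjusted p = 0.13) with the closest replicates of the 5. EVI2B, a membrane protein gene of blood cells, differed by 1.41 ± 0.28 (adjusted p = 0.13), but its second probe gave -0.47. The direction for EVI2B therefore depends on the probe.

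Lower at 72 h, with no gene past the threshold, were the 12 genes of smallest p. EDN2, the secreted peptide endothelin 2, read 6.48 and 7.47 at 24 h and 5.74 and 5.42 at 72 h, a difference of -1.40 ± 0.32 (adjusted p = 0.18). The difference was -0.74 on slide 1 and -2.05 on slide 2. AKR1B10, an aldo-keto reductase of the NRF2 programme, read 9.21 and 8.57 at 24 h against 7.64 and 6.92 at 72 h, a difference of -1.61 ± 0.40 (adjusted p = 0.27). It was the largest negative difference over the 14807 genes, and the slides gave -1.57 and -1.65. The near-identical paralog AKR1B15 differed by -1.37 ± 0.35 (adjusted p = 0.28), and how far the probes of both tell these copies apart was not tested. TSPAN15, a tetraspanin that partners the protease ADAM10, differed by -1.05 ± 0.25 (adjusted p = 0.21).

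The glucuronosyltransferases UGT1A6 (-0.70 ± 0.16, adjusted p = 0.19) and UGT1A7 (-0.88 ± 0.22, adjusted p = 0.27) are made from 1 locus with shared exons. UGT1A7 was not detected on either 72 h array, so it was at least 1.49-fold dimmer there, and the other 2 probes of UGT1A6 gave -0.19 and -0.74. ATG5, needed for autophagosome formation, read 7.62 and 7.58 at 24 h and 6.81 and 6.68 at 72 h, a difference of -0.86 ± 0.22 (adjusted p = 0.27). COQ3, a methyltransferase of coenzyme Q synthesis, differed by -0.80 ± 0.20 (adjusted p = 0.27), and COX20, an assembly factor of cytochrome c oxidase, by -0.74 ± 0.19 (adjusted p = 0.27). PCDHB13, SFT2D3 and RD3 made up the 12. The first pair gave -0.76 and -0.74, and RD3, not detected on either 72 h array, was at least 1.27-fold dimmer there. In each of these 12 genes both 72 h arrays lay below both 24 h arrays (18.9% of all genes), which their choice by p in this contrast favours, so nothing is read from it.

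The genes usually read first after DNA damage did not pass the test. CDKN1A, the p21 inhibitor of cyclin-dependent kinases, read 8.82 and 9.0 at 24 h and 9.02 and 9.66 at 72 h, a difference of 0.43 ± 0.36 (adjusted p = 0.99). MDM2, a ubiquitin ligase, differed by -0.0080 ± 0.21, with a sign that turned under other settings, and FAS, the death receptor, was above background on neither array at 24 h and on 1 at 72 h, so no difference is given. PCNA, the sliding clamp of replication, differed by -0.17 ± 0.25 and MKI67, the proliferation antigen, by 0.29 ± 0.29. A further probe of PCNA gave -0.40, with -0.05 on slide 1 and -0.76 on slide 2. GDF15, a stress cytokine, read 4.66 and 5.04 at 24 h, 6.05 and 6.73 at 72 h, 5.62 and 5.51 at 0 h, a difference of 1.54 ± 0.54 that missed the threshold (adjusted p = 0.61). At 24 h 1 of 2 arrays detected GDF15, and BT549 expressed it on 6 of 6 arrays, the HCC38 difference being 5.54% of that level. GADD45A, which binds PCNA and p21, read 8.57 and 8.19 at 24 h against 9.33 and 9.93 at 72 h (1.25 ± 0.35, adjusted p = 0.38).

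Of 42 gene lists, 33 had a median change within 0.15 of 0, and 2 held a gene that passed the test. The 6 lists with a median above 0.2 were MAPK feedback genes, NF-kB and inflammatory genes, mesenchymal genes, small RNAs, G2/M genes, and ribosome biogenesis genes. The lowest median, -0.20, belonged to the NRF2 and antioxidant genes. These lists are described next because of their medians, so the medians and the counts of members are descriptions and carry no test. The choice of lists favours high counts too, also where a share of all genes is given beside them. The median over all genes (-0.0035) is the value to set beside the medians.

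**Figure D3:**
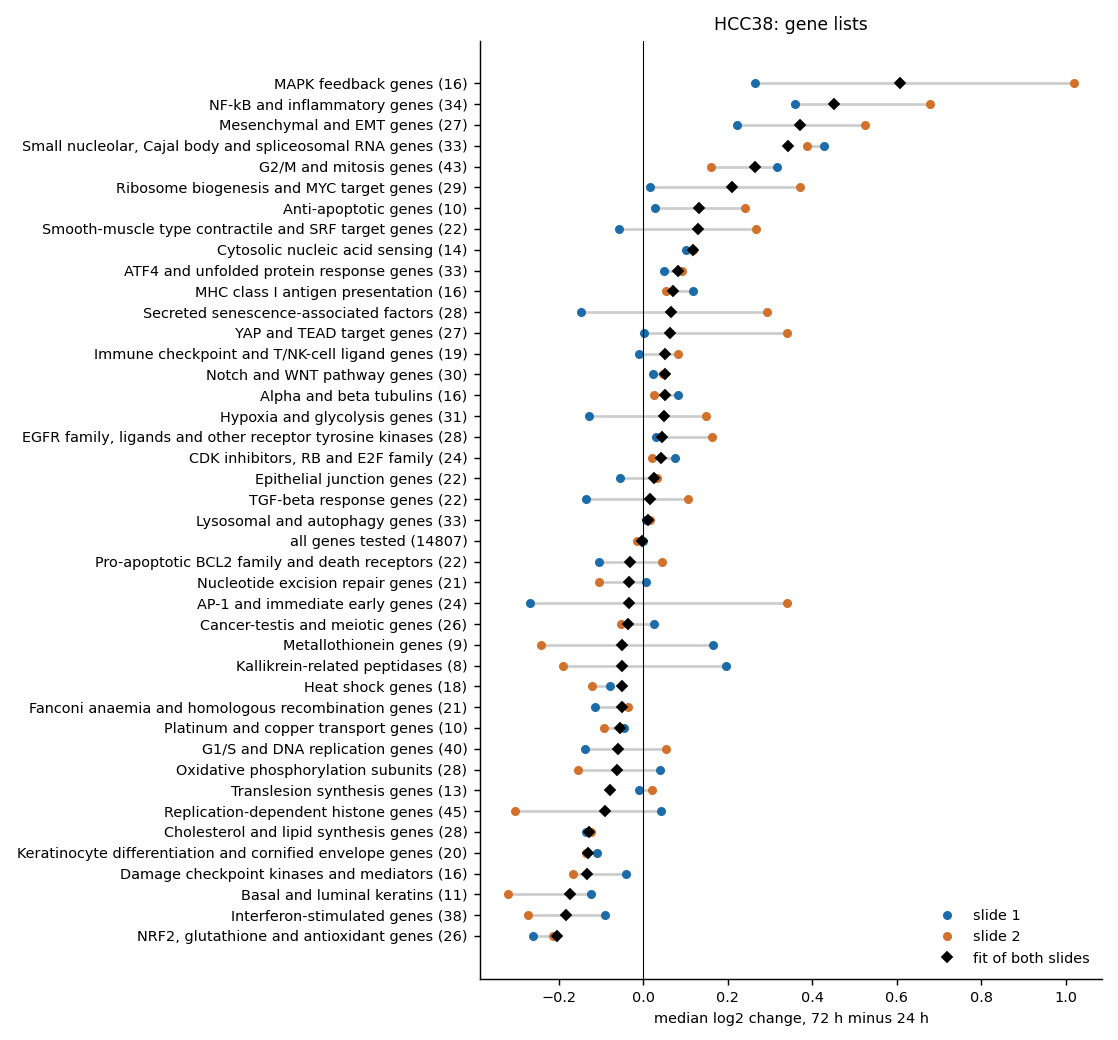
Median change from 24 h to 72 h (log2) of the gene lists in HCC38, without 1 list that is not reported here, with the number of measured members in brackets, as the fit over both slides (diamonds) and on each slide (points). The MAPK feedback list has the highest median (0.61) and the widest gap between slides among the 6 highest lists, and all genes lie at -0.0035.

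All 33 measured small RNAs were viewed by class. The list holds 31 members above 0 and 2 below, with a median of 0.34 (0.43 on slide 1 and 0.39 on slide 2). RN7SK and RNU4-2 passed the test, and 13 members had an unadjusted p under 0.05 on the higher side, against 3.04% of all genes. Most of these RNAs lack a poly(A) tail, several are families of near-identical copies, and how well the labelling kit captures them was not tested. The 9 C/D box small nucleolar RNAs had a median of 1.25 and a range from -0.36 (SNORD16) to 1.78 (SNORD3C). Many RNAs of this class guide ribose methylation. The members with the largest differences, the U3 copies and SNORD13, have other roles, so the median is not one of methylation guides. SNORD3A, another U3 copy, read 8.82 and 8.62 at 24 h and 9.88 and 10.76 at 72 h (1.60 ± 0.34, adjusted p = 0.15). SNORD13, which guides acetylation of 18S ribosomal RNA, read 9.18 and 9.11 against 9.99 and 11.08 (1.39 ± 0.45, adjusted p = 0.52). SNORD46 gave 1.25 ± 0.29 (adjusted p = 0.20).

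The 6 spliceosomal RNAs had a median of 0.80. RNU4-1, the second U4 gene, read 5.52 and 5.32 at 24 h and 6.44 and 7.68 at 72 h (1.64 ± 0.37, adjusted p = 0.18). RNU6-1, a U6 gene, gave 0.12 ± 0.19 at a high level near 11.8 on all 4 arrays. The U4 and U1 probes were thus higher at 72 h while that of U6 differed by less than its error. The 9 H/ACA box RNAs, which guide pseudouridylation, had a median of 0.17, and SNORA8 gave -0.19 ± 0.19. The 5 Cajal body RNAs had a median of 0.43. RPPH1, the RNA part of ribonuclease P, gave 0.48 ± 0.46. RMRP, that of ribonuclease MRP, was above background on neither 24 h array and on 1 of the 72 h arrays, and was at least 1.28-fold brighter at 72 h.

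The probes for the ribosomal RNAs themselves, which are no members of the list, had the largest difference of all genes in the 28S case. RNA28SN5 read 10.73 and 10.37 at 24 h and 12.75 and 13.47 at 72 h, and RNA18SN5 8.43 and 7.83 against 9.10 and 10.37. The differences were 2.56 ± 1.13 (adjusted p = 0.81) and 1.60 ± 0.67 (adjusted p = 0.77), and neither passed. In the other lines the 28S probe differed by 3.03 in BT549, by 0.99 in MDA-MB-157 and by -0.19 in MDA-MB-231. Carry-over of ribosomal RNA into the labelled pool and its part in the small RNA signals were not tested.

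MAPK feedback genes stood highest. All 16 measured members were above 0, the median was 0.61, 9 were higher at an unadjusted p under 0.05 (3.04% of all genes), and 0 passed the test. Of the 16, 2 were not detected on either 24 h array. In 11 of the 16 both 72 h arrays were above both 24 h arrays, against 18.5% of all genes, and in 12 both 72 h arrays were above both 0 h arrays, against 19.2%. The median was 0.26 on slide 1 and 1.02 on slide 2, with the larger difference on slide 2 in 14 of the 16. DUSP6, the phosphatase that inactivates ERK in the cytoplasm, read 6.92 and 6.31 at 24 h, 7.24 and 8.34 at 72 h, and 6.82 and 8.44 at 0 h. Its difference of 1.18 ± 0.42 (adjusted p = 0.63) was 0.32 on slide 1 and 2.03 on slide 2, and the 0 h arrays spanned a wider range than those at 72 h.

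FOSL1, the AP-1 subunit FRA1, read 8.77 and 7.49 at 24 h and 9.08 and 9.31 at 72 h (1.06 ± 0.40, adjusted p = 0.67). PHLDA1, an early MAPK target, had the smallest p of the list: 11.005 and 10.59 at 24 h and 11.50 and 11.90 at 72 h, a difference of 0.90 ± 0.20 (adjusted p = 0.18) with no overlap. DUSP5, the nuclear ERK phosphatase, gave 0.88 ± 0.38 (adjusted p = 0.79), and the sprouty genes SPRY2 and SPRY4, which damp receptor signalling, 0.87 ± 0.28 (adjusted p = 0.52) and 0.70 ± 0.29 (adjusted p = 0.76). At 24 h the slide 2 array was the lower for each of these 6 genes, and at 72 h it was the higher, so both times add to the larger difference on slide 2. The smallest difference was that of IER3 (0.13 ± 0.27), whose sign turned without either slide 2 array. Of the growth factors that feed this cascade, BTC gave 0.84 ± 0.24 (adjusted p = 0.39), HBEGF 0.75 ± 0.25 (adjusted p = 0.55) and TGFA 0.68 ± 0.23 (adjusted p = 0.59). The list of receptor tyrosine kinases and their ligands as a whole had a median of 0.04, with 16 of 28 above 0. In the immediate early list FOS and FOSB were below 0, at -1.07 ± 1.13 and -0.88 ± 0.98, with errors as large as the differences, and JUN gave 0.53 ± 0.19 (adjusted p = 0.61).

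**Figure D4:**
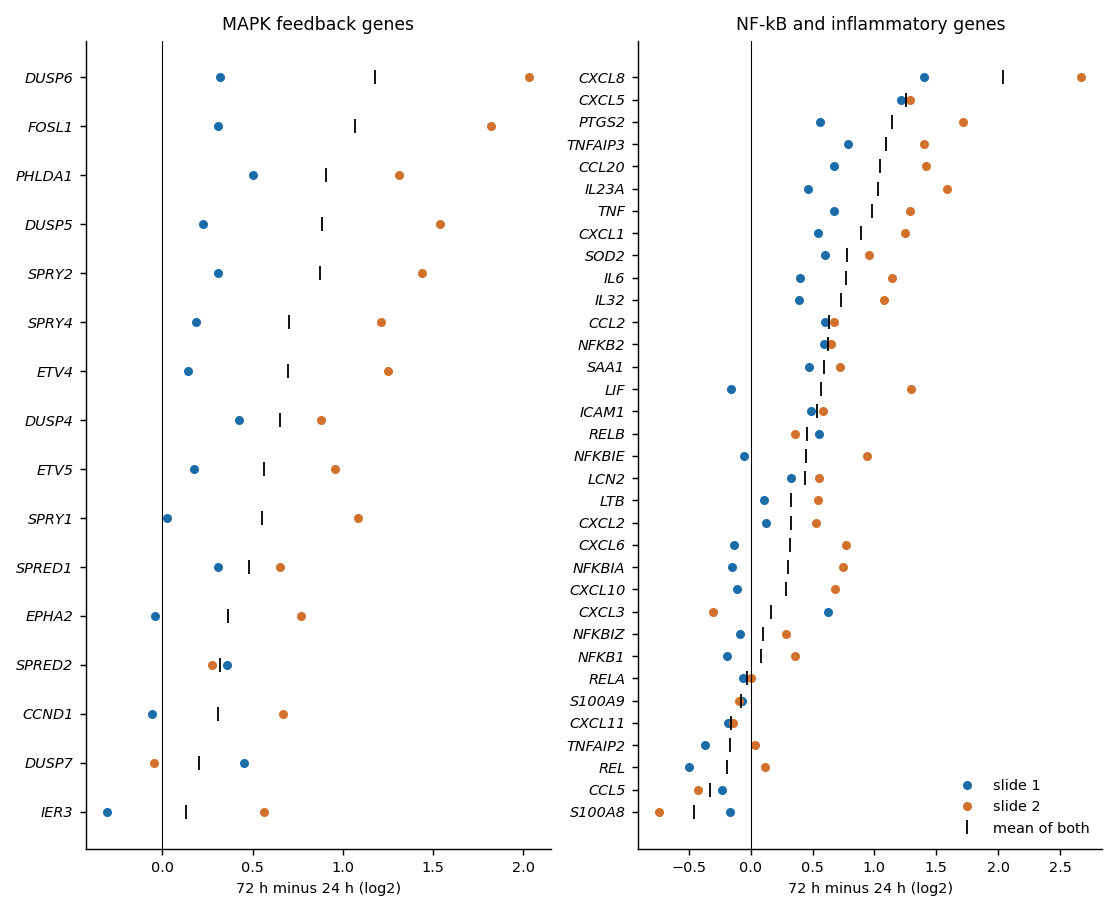
Change from 24 h to 72 h (log2) of each measured MAPK feedback gene (left) and NF-kB or inflammatory gene (right) in HCC38, on slide 1, on slide 2 and as the mean of both. All 16 MAPK means (IER3 not without either slide 2 array) and 27 of the 34 NF-kB means are above 0, and most slide 2 points lie to the right of slide 1.

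The NF-kB list held TNF, which rose, and 26 further members above 0 among its 34 measured. The median was 0.45 (0.36 on slide 1 and 0.68 on slide 2), 8 members were higher at an unadjusted p under 0.05 (3.04% of all genes), and in 18 the 72 h arrays lay above both 24 h arrays (18.5% of all genes). For TNF, the member that passed, and for CXCL8 and CXCL5, the members with the largest differences, the 250 bases before the RefSeq gene start (build GRCh38.p14) are printed 5′ to 3′ on the gene's own strand, with each match to the motif GGANTTTCC, searched on both strands, in capitals. TNF lies at chr6:31575315-31575564 on the plus strand, CXCL8 at chr4:73740319-73740568 on the plus strand and CXCL5 at chr4:73998678-73998927 on the minus strand.
TNF: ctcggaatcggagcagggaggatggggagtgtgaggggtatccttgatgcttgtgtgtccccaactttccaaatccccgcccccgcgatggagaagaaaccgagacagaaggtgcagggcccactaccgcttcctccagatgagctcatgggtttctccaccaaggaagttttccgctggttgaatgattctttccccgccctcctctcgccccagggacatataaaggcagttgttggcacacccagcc
CXCL8: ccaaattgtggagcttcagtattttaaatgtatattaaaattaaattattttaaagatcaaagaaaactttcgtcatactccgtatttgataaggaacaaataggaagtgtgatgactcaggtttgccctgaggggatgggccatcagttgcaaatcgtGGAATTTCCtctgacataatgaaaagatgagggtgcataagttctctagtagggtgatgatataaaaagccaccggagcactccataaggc
CXCL5: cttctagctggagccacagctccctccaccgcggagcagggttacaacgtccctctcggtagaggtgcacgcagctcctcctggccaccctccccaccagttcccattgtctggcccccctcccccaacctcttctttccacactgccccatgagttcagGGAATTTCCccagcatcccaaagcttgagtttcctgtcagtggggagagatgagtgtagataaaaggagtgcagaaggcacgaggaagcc
CXCL8 holds 1 match that starts 91 bases before the gene start, CXCL5 1 that starts 90 bases before it, and TNF none in this window. A match describes letters only, and none says nothing of binding outside the window. The motif is 1 narrow pattern, and NF-kB sites of other sequence, inside the window too, were not searched. Over the list 17 of 28 promoters held the motif (60.7%), against 1.53% of the 11601 promoters of genes tested. The list was put together around NF-kB, which favours a high share, so nothing about these arrays is read from it. Within the list the 17 with the motif had a median change of 0.33 and the 11 without it 0.62. Over all genes tested the order was the other way, with 0.0588 for the 177 promoters with the motif and -0.0086 for those without. Of the 7 genes that rose 4 had a promoter in the table, and 0 of these held the motif. At a share of 1.53% over all promoters, a count of 0 among 4 carries no information. Whether NF-kB had a part in these differences was not tested.

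CXCL8, the neutrophil chemokine interleukin 8, had the largest difference of the list: 7.86 and 7.55 at 24 h, 9.27 and 10.23 at 72 h, and 8.89 and 7.73 at 0 h. The 72 h arrays were the brightest of the 6. The difference was 2.04 ± 0.59, or 4.11-fold, and missed the threshold (adjusted p = 0.39). CXCL5, another neutrophil chemokine, read 5.85 and 6.15 at 24 h against 7.06 and 7.45 at 72 h (1.25 ± 0.52, adjusted p = 0.77), with 7.43 and 4.98 at 0 h, so that the 0 h arrays spanned the whole range. CXCL8 and CXCL5 are bright in BT549, and the HCC38 differences equalled 11.1% and 2.80% of the BT549 levels.

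CCL20, IL23A and PTGS2 were detected on 3, 0 and 3 of 6 BT549 arrays. CCL20, a chemokine for dendritic and T cells, read 5.95 and 5.94 at 24 h and 6.63 and 7.35 at 72 h (1.04 ± 0.28, adjusted p = 0.32). IL23A, a subunit of interleukin 23, read 5.79 and 5.16 against 6.25 and 6.75 (1.03 ± 0.27, adjusted p = 0.29). PTGS2, the inducible cyclooxygenase, gave 1.14 ± 0.47 (adjusted p = 0.77). In these 3 genes the 72 h arrays lay above both 24 h arrays (18.5% of all genes). Their choice with the values known favours this, so nothing is read from it. The mitochondrial superoxide dismutase SOD2 gave 0.78 ± 0.20 (adjusted p = 0.27) and the feedback inhibitor TNFAIP3 1.09 ± 0.56 (adjusted p = 0.89). The subunits and direct inhibitors of NF-kB had smaller differences: NFKB2 gave 0.62 ± 0.31, NFKBIA 0.30 ± 0.32, NFKB1 0.08 ± 0.22 and RELA -0.03 ± 0.18. The lowest members were S100A8 (-0.45 ± 0.32) and CCL5 (-0.33 ± 0.47).

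Mesenchymal genes had a median of 0.37 (0.22 on slide 1 and 0.52 on slide 2), with 20 of 27 above 0, 0 past the test and 6 higher at an unadjusted p under 0.05 (3.04% of all genes). This list holds 3 of the 4 BT549 marker genes (COL1A2, THY1 and TAGLN), which were brighter at 72 h as given above. The part of BT549 RNA in it was not tested. COL1A2, a collagen chain, read 5.26 and 5.72 at 24 h, 6.74 and 6.99 at 72 h, and 7.52 and 5.09 at 0 h, a difference of 1.38 ± 0.64 (adjusted p = 0.84) equal to 1.69% of the BT549 level. CDH11, a mesenchymal cadherin, had steady 0 h arrays at 7.12 and 7.12, with 6.74 and 6.60 at 24 h and 7.65 and 8.41 at 72 h (1.36 ± 0.54, adjusted p = 0.73). SNAI2, the transcription factor Slug, likewise read 6.96 and 6.91 at 0 h, 6.45 and 6.04 at 24 h and 7.32 and 7.77 at 72 h (1.30 ± 0.30, adjusted p = 0.20).

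For CDH11 and SNAI2 the 24 h arrays were thus below and the 72 h arrays above those at 0 h, and the differences equalled 27.2% and 25.2% of the BT549 levels. TWIST1, a further transcription factor of the list, gave 0.87 ± 0.29 (adjusted p = 0.56), which equals 1.67% of its BT549 level, with 6.25 and 4.99 at 0 h. The lowest members were TGFBI (-0.37 ± 0.36) and ACTA2 (-0.35 ± 0.31), and ZEB1, FN1 and the PDGF receptors were not detected on the 4 arrays. Among epithelial genes EPCAM differed by 0.11 ± 0.46 and CDH1 by 0.08 ± 0.32, while of 11 keratins 8 were below 0 with a median of -0.17, led by KRT16 (-0.57 ± 0.28, adjusted p = 0.87) and KRT19 (-0.53 ± 0.40). FOXA1, a luminal pioneer factor, read 5.67 and 5.32 at 24 h and 6.51 and 6.59 at 72 h (1.06 ± 0.24, adjusted p = 0.18).

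Cell-cycle genes were read by phase. G2/M and mitosis genes had 39 of 43 members above 0 with a median of 0.26 (0.32 on slide 1 and 0.16 on slide 2), and 0 passed. NEK2, a centrosome kinase, read 10.30 and 10.71 at 24 h and 11.24 and 10.94 at 72 h (0.59 ± 0.25, adjusted p = 0.78). PTTG1, the securin that restrains sister chromatid separation, read 11.66 and 11.89 against 12.35 and 12.26 (0.53 ± 0.19, adjusted p = 0.63). The lowest were PKMYT1 (-0.27 ± 0.19) and CDK1 (-0.11 ± 0.25). G1/S and replication genes had 16 of 40 above 0 and a median of -0.06. Replication-dependent histone genes had 17 of 45 above 0 and a median of -0.09, from H3C1 (-0.65 ± 0.22, adjusted p = 0.59) to H4C2 (0.41 ± 0.55). Against 0 h instead, both 72 h arrays were below both 0 h arrays in 31 of these 45 genes, against 22.2% of all genes. Ribosome biogenesis genes had 25 of 29 above 0 and a median of 0.21, but 0.02 on slide 1 and 0.37 on slide 2, with PPAN (0.53 ± 0.30) and MYBBP1A (0.47 ± 0.30) highest and POLR1A (-0.18 ± 0.27) and PES1 (-0.09 ± 0.20) lowest.

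NRF2 and antioxidant genes were the lowest list: 23 of 26 were below 0, with a median of -0.20 (-0.26 on slide 1 and -0.21 on slide 2), and 0 passed. AKR1B10 led it as given above. GPX2, a glutathione peroxidase, read 6.28 and 5.95 at 24 h and 5.98 and 4.62 at 72 h (-0.82 ± 0.31, adjusted p = 0.67). The aldo-keto reductases AKR1C2 (-0.74 ± 0.44, adjusted p = 0.94) and AKR1C3 (-0.72 ± 0.56) share most of their sequence. The highest members were HMOX1 (0.26 ± 0.25) and GSTM3, which was not detected at 24 h and was at least 1.17-fold brighter at 72 h. The lists closest to the action of the drug had small medians: Fanconi anaemia and homologous recombination genes -0.05, nucleotide excision repair genes -0.03, translesion synthesis genes -0.08, and platinum and copper transporters -0.06.

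The same interval was tested in the other lines, and then the difference between HCC38 and them. From 24 h to 72 h 22 genes passed in BT549 (0.149%), of which 18 were higher (0.122%) and 4 lower (0.027%). In MDA-MB-157 20 passed (0.135%), with 18 higher (0.122%) and 2 lower (0.0135%), and in MDA-MB-231 0 passed. At an unadjusted p under 0.05 the counts were 1067 (7.21%), 1142 (7.71%) and 431 (2.91%) in that order. The change in HCC38 minus the mean change of the other 3 lines passed for 0 genes (limma), with 647 genes (4.37%) at an unadjusted p under 0.05. The smallest adjusted p was 0.17, shared by SH3GL2, MDGA2, TNF, UPK2 and TMEM158. Of the 18 arrays of the other lines 0 detected MDGA2, TNF or UPK2 and 1 detected SH3GL2, so for these 4 genes the test sets HCC38 against background and no size is given. TMEM158 was detected on 18 of 18, with a difference of 1.39 ± 0.26. TMEM158, a membrane protein induced by RAS signalling, gave 1.00 in HCC38, -0.21 in BT549, -0.75 in MDA-MB-157 and -0.24 in MDA-MB-231. Across genes the HCC38 change correlated with that of BT549 at r = 0.157, of MDA-MB-157 at 0.197 and of MDA-MB-231 at 0.087, with no shared arrays.

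**Figure D5:**
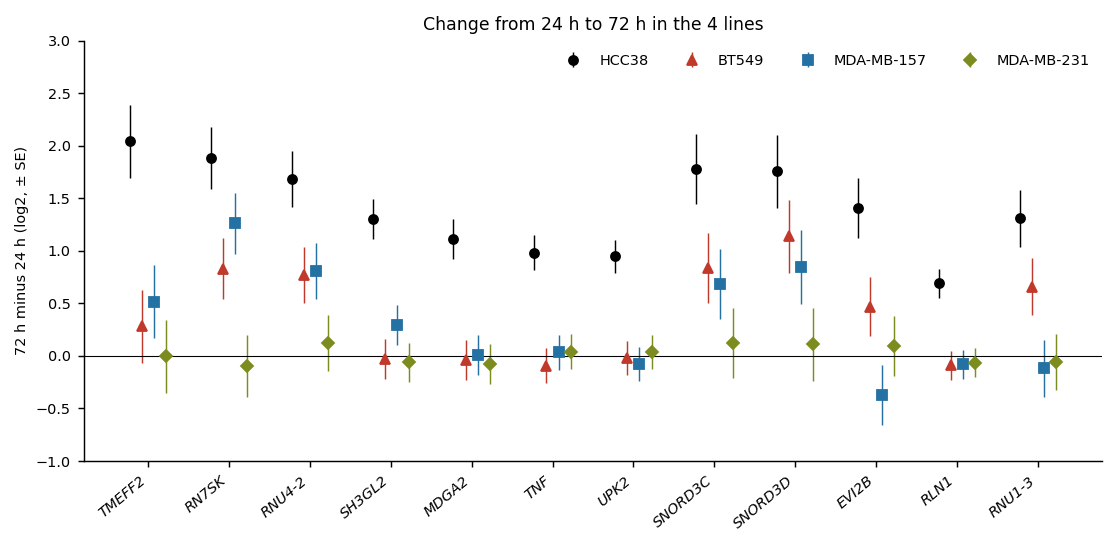
Change from 24 h to 72 h (log2, ± SE from the fit) in each of the 4 lines for the 7 genes that passed in HCC38 and the 5 nearest above the threshold. TNF, MDGA2 and UPK2 were detected on 0 of the 18 arrays of the other lines and SH3GL2 on 1, so their points there are background readings, and RN7SK and RNU4-2 lie between 0.77 and 1.26 in BT549 and MDA-MB-157.

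RN7SK gave 0.83 in BT549, 1.26 in MDA-MB-157 and -0.10 in MDA-MB-231, and RNU4-2 gave 0.77, 0.81 and 0.12 in that order, none past the test. TNF gave -0.09, 0.03 and 0.04 against 0.98 in HCC38, but none of the 18 arrays of the other lines detected it, so the values there are background readings. For the lists, the MAPK feedback median was 0.32 in BT549, -0.08 in MDA-MB-157 and -0.05 in MDA-MB-231, and the NF-kB median 0.18, -0.06 and 0.20. Interferon-stimulated genes had a median of 1.34 in BT549 against -0.18 in HCC38, where 13 of 38 were above 0 and RSAD2 (-0.57 ± 0.33) was lowest. G2/M genes had their highest median in MDA-MB-157 at 0.38, above the 0.26 of HCC38, and 0.02 in BT549. No list was tested between lines.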

How the data were processed

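The authors deposited an intensity per probe and array that is not normalized, per the file headers. Each deposited intensity is followed by its detection p-value. The software that summarised the beads is not given in the sources used here. Per the labels, total RNA was extracted with a QIAGEN kit and labelled as biotinylated cRNA with an Ambion kit. Another deposited table of the series was not used, and 0 per-sample columns of the intensity table were left out.

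With limma 3.58.1 in R 4.3.3, background was corrected by normexp from the detection p-values (offset 16), and the 24 arrays were quantile normalized and log2 transformed. Of 47322 probes, 30112 had 1 gene symbol in the platform annotation, 8 several and 17202 none, and symbols were updated by Entrez identifier through RefSeq. A probe entered if 2 or more arrays had its detection p below 0.05, and the brightest such probe stood for its gene (14807 genes). In 3142 genes with 2 probes these correlated over arrays at a median of 0.709. One mean per line and time was fitted over all 24 arrays (12 residual degrees of freedom, prior 6.57), and p-values were adjusted by Benjamini-Hochberg over all genes. Precision is limited by the number of arrays, 2 per group. A gene undetected on both arrays of a group has a bound, set against the lowest detected signal per array.

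The members and gene lists were chosen with earlier results of these data known. Named by rule were the genes that passed, or those of smallest p up to 12 per direction, the extremes of each list described, the markers, and CDKN1A, MDM2, GDF15, FAS, PCNA and MKI67; 1 further item of this rule, and 1 list, are not reported here. Other genes were chosen after their values were seen. The alternatives tried were background, scaling, detection filter, probe rule, slide and replicate block, array weights, fewer arrays and each array left out.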

Additional observations from a re-analysis of the deposited data

How the results depend on the processing

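Every one of the 7 genes that rose kept its direction in all 16 alternative settings, with 53 of 112 gene-by-setting results past the threshold and 59 not. The count of 7 became 2 with no background correction (RN7SK and RNU4-2), 4 with an offset of 50 (3 higher, 1 lower: UGT1A6), 0 with arrays scaled to their median (181 at an unadjusted p under 0.05) or to their 75th percentile without background correction (214), 16 with array weights, and 0 in the 6 (924 unadjusted) or 4 (1059 unadjusted) HCC38 arrays alone. No detection filter gave 8 (6 of the 7, with RLN1 and ZNF280A), and detection in HCC38, the mean of probes and a slide block gave 7 each. With the replicate block, 12 genes passed (10 higher, 2 lower): EVI2B, SLCO2A1, SNORD3C, SNORD46, AKR1B10 and AKR1B15 joined and TNF left. The number is the slide in HCC38 at 24 h and 72 h but not in every group, and the replicate differences at those times correlated at 0.071 across genes, so a pairing is not established. Leaving out 1 array gave 0 to 12, where the lone array left in its group is assumed to vary like the other groups: 12 without 72 h replicate 1 (6 of the 7 kept), 0 without 72 h replicate 2 (604 unadjusted), 5 without 24 h replicate 1 (RN7SK kept, with EVI2B, IMPACT, PRDM8 and PROM1) and 2 without 24 h replicate 2 (SH3GL2 kept, with DUSP9). The test against the other lines gave 0, but 1 with no filter (RLN1), 2 with the replicate block (AKR1B10 and AKR1B15), and 0 to 5 with 1 array left out, 5 being without HCC38 72 h replicate 1 (MDGA2, SH3GL2, TMEM129, TMEM158 and TNF). Signs turned for 7 named genes that had not passed. MDM2 gave 0.031 with median scaling. With 1 array left out MDM2 ranged from -0.22 to 0.20, CDK1 from -0.33 to 0.12, MYBBP1A from -0.083 to 1.02, IER3 from -0.11 to 0.37, POLR1A from -0.44 to 0.071, PES1 from -0.34 to 0.17 and H4C2 from -0.39 to 1.21. Scaling moved the median of all genes to 0.026 at most. The medians of the 7 lists described at length kept their sign in all settings. They ranged from 0.28 (without 24 h replicate 2) to 0.82 for MAPK feedback, 0.19 to 0.58 for NF-kB, 0.16 to 0.48 for mesenchymal genes and 0.15 to 0.43 for small RNAs, the last 3 lowest without background correction. G2/M genes ranged from 0.15 (without 24 h replicate 1) to 0.31. Ribosome biogenesis genes gave 0.049 without 24 h replicate 2 and 0.37 without 24 h replicate 1, and NRF2 genes -0.34 without 24 h replicate 2 and -0.12 without 72 h replicate 2. Some medians given for other lists turned sign. Keratins ranged from -0.36 to 0.058, histone genes from -0.35 to 0.10 and G1/S genes from -0.12 to 0.049. So did Fanconi anaemia genes (-0.14 to 0.085), excision repair genes (-0.082 to 0.024) and translesion synthesis genes (-0.10 to 0.013). Those of interferon-stimulated, receptor tyrosine kinase and transporter genes kept their sign. The causes were not tested. SH3GL2, MDGA2 and UPK2 were not detected at 24 h, so the signal over background limits their folds to bounds.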
